A study of Mus musculus with 18 samples.

Results

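CD11b-positive cells were taken from PDGFB-driven mouse brain tumours after 3 days of PLX3397 or of vehicle, and their RNA was sequenced in bulk. They make up 3 of the 18 libraries of the series: 2 libraries from mice given PLX3397 and 1 from a mouse given vehicle, chosen by their labels and not by any measured value. All 3 mice were of strain Boy/J and carried an implanted tumour driven by PDGFB. Dosing was once daily by oral gavage at 100 mg/kg, from day 14 after implantation, and the age of the mice is not given in the sources used here. Dissociated tumours were cleared of red cells, and CD11b cells were then held back on magnetic columns with microbeads, which enrich for CD11b but do not exclude other cells. The titles number the mice within a group, so the libraries are read as separate animals, and how the PDGFB tumours were made is not given in the sources used here. The other 15 libraries come from Ras-driven tumours or from tumour lines, and 1 of them, a 10x library of a Ras tumour, serves below to say which cells carry a gene.

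CD11b is an integrin chain carried by microglia, monocytes, macrophages, neutrophils and some dendritic and natural killer cells. Microglia and most tissue macrophages depend on the receptor CSF1R, which binds CSF1 and IL34 and drives survival, division and differentiation. PLX3397 (pexidartinib) is an oral kinase inhibitor aimed at CSF1R, and it reaches KIT and FLT3 as well. In gliomas, these cells are the most common immune cells, and they present antigen, clear debris and secrete chemokines and growth factors. The comparison asks which transcripts of the CD11b fraction differ after a short inhibition.

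The libraries held 30.9 M (vehicle), 26.8 M and 30.0 M (PLX3397, mice 1 and 2) counts, where M is units of 1e6. Levels below are counts per M after TMM scaling (CPM). Myeloid genes were abundant in all 3 libraries, as the selection implies. Itgam, which encodes CD11b, stood at 1194 CPM under vehicle, 585.1 CPM in PLX3397 mouse 1 and 810 CPM in mouse 2. Tyrobp, a signalling adaptor of myeloid cells, was at 480.5, 541.8 and 448.6 CPM in the same order, so its groups overlapped. Of 27 pan-myeloid genes, 20 were below vehicle in both PLX3397 libraries and 3 fell by the test below, among them Coro1a and Ncf4, while 0 were called lower on the leukocyte scaling described below. Their summed level was 22424 CPM under vehicle and 20379 and 17405 CPM under PLX3397. In bulk RNA, fewer cells of a type and less RNA per cell cannot be told apart.

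Of 15052 genes tested, 956 (6.35%) passed the edgeR quasi-likelihood test at 0.05 after Benjamini-Hochberg adjustment and are named called below. PLX3397 libraries were higher for 688 of them (4.57% of the genes tested) and lower for 268 (1.78%). In all 956 genes, both PLX3397 libraries lay on the same side of the vehicle library. Over all genes tested, both lay above vehicle for 41.6% and both below for 42%. Since the spread comes from the PLX3397 pair, a call nearly requires that both lie on the same side. Their agreement among called genes is therefore no separate support. Every call rests on the 1 vehicle library, whose spread had to be borrowed from the PLX3397 pair, and on 1 residual degree of freedom. The adjusted p-values of the called genes lay between 0.0305 and 0.04998, so they hardly rank the genes, and limma-voom called 0 genes (4242 at an unadjusted p under 0.05). When libraries were scaled to equal levels of 20 leukocyte genes, the median of all genes moved by 0.44 on the log2 scale, and 2129 genes were higher and 117 lower in place of 688 and 268. Fold changes below are log2 values for PLX3397 against vehicle, with their standard error (SE).

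**Figure D1:**
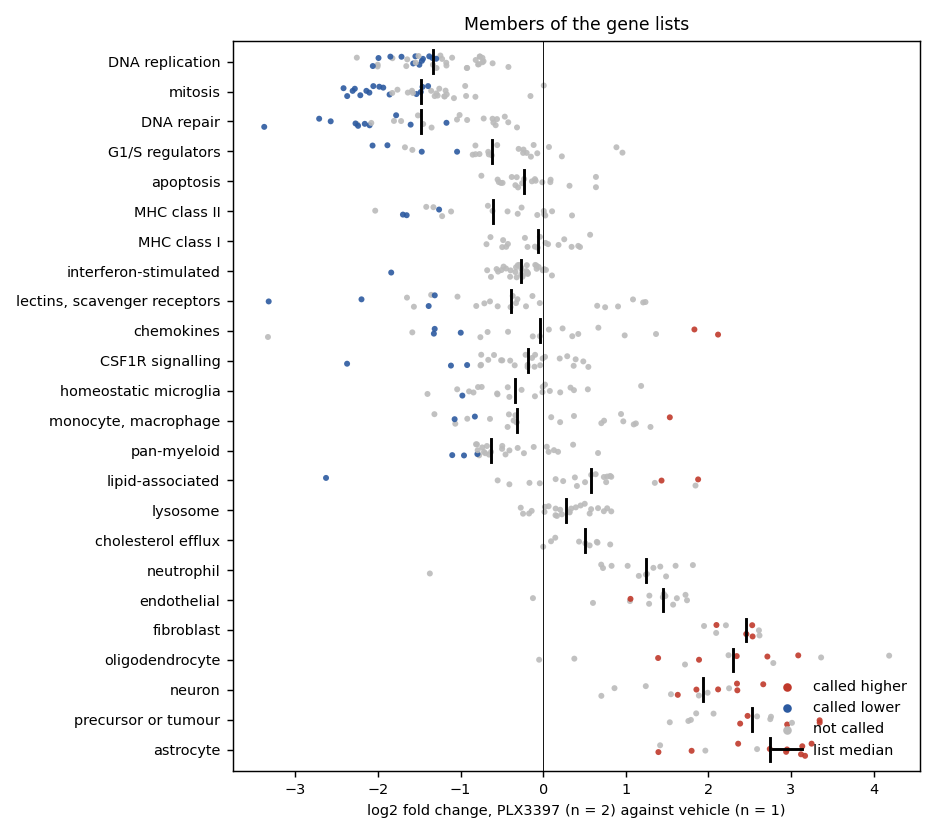
Log2 fold change (x axis) of each tested member of 24 gene lists (y axis), for PLX3397 against vehicle, with the list median as a black bar. Division lists lie to the left of 0 with medians from -1.48 to -0.62, and neural and fibroblast lists to the right with medians from 1.94 to 2.74. Genes with 0 counts under vehicle are not drawn.

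Neither the drug's main target nor CSF1 changed by the test, while the ligands Il34 and Kitl rose. Csf1r was at 2033 CPM under vehicle and at 1785 and 1581 CPM under PLX3397, a log2 fold change of -0.27 (SE 0.24, adjusted p = 0.504), and the value turned to the positive side on the leukocyte scaling. Csf1, its ligand from many cell types, was at 272.9, 428.8 and 378.9 CPM. Kit, the stem cell factor receptor and a further target of the drug, was at 10.2, 13.6 and 29.8 CPM, with the second PLX3397 library apart from the others. Flt3, the third target, was at 12.7, 12.4 and 17.4 CPM, with overlapping groups. Kitl, the ligand of KIT, rose from 15.1 CPM to 42.6 and 36.6 CPM (1.39, SE 0.20). Il34, a ligand of CSF1R made mainly by neurons and keratinocytes, rose from 1.87 CPM to 9.01 and 10.1 CPM (2.35, SE 0.33). In the 10x library, by the 4-fold rule given below, both ligands lay on neither side: Il34 was at 0.872 CPM in leukocyte-rich and 3.98 CPM in leukocyte-poor barcodes, and Kitl at 11.9 and 28.9 CPM. Csf3r, the receptor of the granulocyte factor, was at 192.3, 318 and 364.8 CPM (0.83, adjusted p = 0.0677) and did not pass the test. Receptor chains for GM-CSF and IL-3 did not pass either, with values from -0.44 (Csf2ra) to 0.39 (Il3ra). In all, 2 of the 14 receptors and ligands were called higher and 0 lower.

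Downstream of CSF1R, 3 of 27 signalling genes fell and none rose. Dok2, an adaptor that restrains receptor signalling in myeloid cells, went from 97.2 CPM to 13.1 and 24.4 CPM (-2.37, SE 0.37). Its relative Dok3 went from 154.9 CPM to 68.6 and 74.2 CPM (-1.12, SE 0.15), and Pik3cg, a catalytic subunit of PI3 kinase in leukocytes, from 211.3 CPM to 108 and 115.2 CPM (-0.92, SE 0.15). The calls of Dok3 and Pik3cg were lost on the leukocyte scaling (adjusted p = 0.106 and 0.214), that of Dok2 was not. The lineage factor Spi1, which encodes PU.1, was at 427.9, 333.2 and 274 CPM and did not pass the test. The median of the list was -0.19 against 0.01 over all genes, and 0.25 on the leukocyte scaling against 0.45 over all genes. Among feedback genes of the MAPK cascade, 3 of 14 rose (Spry2, Etv4 and Spry4) and 1 fell (Etv5, a call lost on the leukocyte scaling, adjusted p = 0.194). Etv5 went from 136.8 CPM to 65.1 and 74.1 CPM, whereas Spry2 went from 6.84 CPM to 26.3 and 30.5 CPM. Spry2, Spry4 and Etv4 lay on the leukocyte-poor side of the 10x library and Etv5 on neither side.

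Most genes of cell division were lower under PLX3397, least so the G1/S regulators. Across lists of DNA replication, mitosis, DNA repair and G1/S regulation, 41 of 127 tested genes fell and none rose, and 120 were below vehicle in both PLX3397 libraries. These 41 genes make up 15.3% of all genes called lower. On the leukocyte scaling 23 of the 127 were called lower, where 0.777% of all genes tested were. The level was lower in PLX3397 mouse 1 than in mouse 2 for 120 of the 127 genes.

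For DNA replication, all 39 genes were below vehicle in both PLX3397 libraries and 12 fell, and their summed level went from 2294 CPM to 799.2 and 1065 CPM. Mcm3, a subunit of the replicative helicase, went from 167.7 CPM to 55.2 and 67.0 CPM (-1.46, SE 0.17). Fen1, the flap endonuclease that trims Okazaki fragments, went from 81.1 CPM to 25.3 and 29.2 CPM (-1.57, SE 0.16). Rfc5, part of the clamp loader, went from 42.2 CPM to 13.7 and 16.1 CPM (-1.50, SE 0.19). Asf1b, a histone chaperone of newly made DNA, went from 31.8 CPM to 6.35 and 8.82 CPM (-2.06, SE 0.26). Rrm2, the regulated subunit of ribonucleotide reductase, went from 68.3 CPM to 13.4 and 20.9 CPM (-1.99, SE 0.29). The vehicle library was the highest of the 3 in each case. The median of the list was -1.33, and -0.87 on the leukocyte scaling, on which 5 genes were called lower in place of 12.

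For mitosis, 33 of 35 genes were below vehicle in both PLX3397 libraries (Anln and Pttg1 were not) and 15 fell. Mki67, the proliferation antigen that coats mitotic chromosomes (chromosome 7), went from 448.8 CPM to 71.3 and 102 CPM (-2.37, SE 0.25). Aurkb, the kinase of the chromosomal passenger complex, went from 46.7 CPM to 10.3 and 14.1 CPM (-1.94, SE 0.24). At the kinetochore, Knl1 went from 40.4 CPM to 5.46 and 9.61 CPM, Ndc80 from 33.5 CPM to 5.46 and 8.92 CPM, and the motor Cenpe from 92.7 CPM to 16.8 and 27.7 CPM. Nusap1, a spindle protein, went from 47.8 CPM to 7.64 and 11.6 CPM (-2.31, SE 0.28). The median of the list was -1.48, and -1.02 on the leukocyte scaling, on which 7 genes were called lower in place of 15.

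Of the DNA repair genes, all 28 were below vehicle in both PLX3397 libraries and 10 fell (8 on the leukocyte scaling), with a median of -1.48 (-1.02 on that scaling). Neil3, a DNA glycosylase of replicating cells, had the largest fall of the named genes, from 21.5 CPM to 1.26 and 2.84 CPM (-3.38, SE 0.48). Rad51ap1, a factor of homologous recombination, went from 21.1 CPM to 2.44 and 3.99 CPM (-2.71, SE 0.35), and Fancd2, of the Fanconi anaemia pathway, from 21.2 CPM to 3.36 and 5.39 CPM (-2.27, SE 0.34). Pclaf, which binds the sliding clamp PCNA, went from 85.7 CPM to 9.71 and 19.1 CPM. Clspn, an adaptor of the replication checkpoint, went from 37.8 CPM to 7.09 and 10.5 CPM.

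Of 25 G1/S regulators, 4 fell (3 on the leukocyte scaling), 20 were below vehicle in both PLX3397 libraries and 3 were above. The median of the list was -0.62, and -0.17 on the leukocyte scaling. Ccnd2, the D-type cyclin induced by growth factors, went from 314.5 CPM to 78.5 and 91.8 CPM (-1.89, SE 0.17). Ccne1 (cyclin E1) went from 23.6 CPM to 4.65 and 6.60 CPM, and E2f2 from 39.5 CPM to 13.4 and 15.1 CPM. Rbl1, the pocket protein p107, went from 79.3 CPM to 35.2 and 41.8 CPM, a call that was lost on the leukocyte scaling. Myc was at 69.0, 34.7 and 43.5 CPM (-0.82, adjusted p = 0.0707) and did not pass the test. By contrast, 0 of 21 genes of apoptosis were called by edgeR (1 by DESeq2, 0 by limma-voom, 8 at an unadjusted p under 0.05 by edgeR), and their median was -0.23, or 0.21 on the leukocyte scaling. Bcl2l11, which encodes the death protein BIM, was at 67.1, 103.2 and 105.8 CPM (0.64, SE 0.15, adjusted p = 0.071), and Bmf at 64.7, 111.4 and 90.0 CPM. Of 22 targets of p53, 3 rose and none fell: Phlda3 from 10.3 CPM to 40.7 and 41.1 CPM, Eda2r from 2.04 CPM to 9.56 and 11.6 CPM, and Ddit4, a stress-induced inhibitor of mTORC1, from 62.2 CPM to 118.2 and 132 CPM. Phlda3 and Eda2r lay on the leukocyte-poor side of the 10x library.

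**Figure D2:**
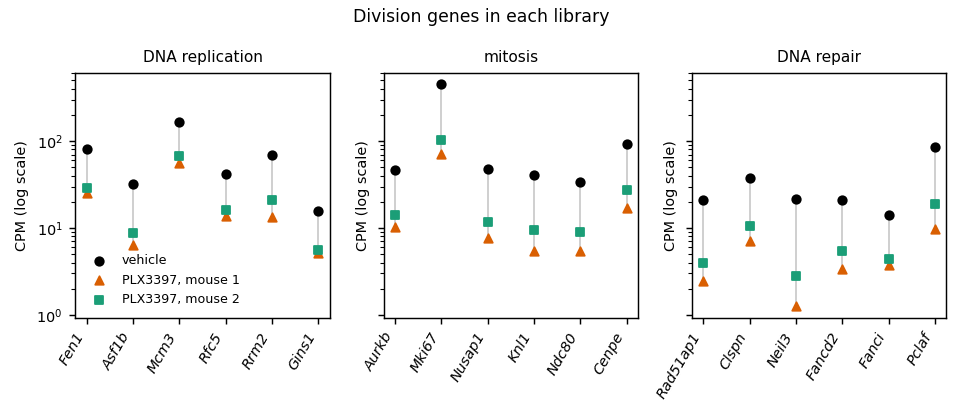
CPM on a log axis in each of the 3 libraries for the 6 genes with the smallest adjusted p in each of 3 division lists (DNA replication, mitosis, DNA repair). The vehicle point is the highest for all 18 genes, and PLX3397 mouse 1 is the lowest for all of them.

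In the 10x library of the Ras tumour, which is another tumour model, 118 of the 127 division genes lay on neither side of a 4-fold ratio between leukocyte-rich and leukocyte-poor barcodes. Their summed level was 3728 CPM in the leukocyte-rich barcodes and 9665 CPM in the leukocyte-poor ones, with no correction for free RNA or for droplets that held several cells. Which cells of the CD11b fraction carried the division RNA was not tested.

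Promoter windows are shown for 6 called genes, those with the smallest adjusted p among replication, mitosis and repair genes with a window in the RefSeq table, and for H2-DMa and H2-DMb1, since these genes were lower together. Sequences are from RefSeq (GRCm38.p6), from 250 bases before to 50 bases after the annotated start, 5′ to 3′ on the strand of the gene. Capitals mark 3 kinds of motif on either strand: the cell-cycle element TTTGAA or TTCGAA, the CCAAT box, and the E2F core TTTCCCGC or TTTGGCGC. The cell-cycle element is bound by the DREAM and MuvB complexes, CCAAT by NF-Y, and the E2F core by E2F factors in late G1 and S phase. The windows lie at chr19:10204344-10204643 (minus strand), chr1:20820263-20820562 (minus strand), chr5:117388974-117389273 (minus strand), chr8:83955444-83955743 (plus strand), chr7:135716330-135716629 (minus strand), chr2:119618048-119618347 (plus strand), chr17:34122582-34122881 (plus strand) and chr17:34152941-34153240 (plus strand). Fen1 and H2-DMa have 2 annotated windows each, and the first listed is shown.
Fen1: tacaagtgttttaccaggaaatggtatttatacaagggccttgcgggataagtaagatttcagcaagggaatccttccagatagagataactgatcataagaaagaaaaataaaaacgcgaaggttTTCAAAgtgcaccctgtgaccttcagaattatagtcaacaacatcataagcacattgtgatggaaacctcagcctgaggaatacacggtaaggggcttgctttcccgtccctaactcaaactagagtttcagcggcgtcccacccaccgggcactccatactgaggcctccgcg
Mcm3: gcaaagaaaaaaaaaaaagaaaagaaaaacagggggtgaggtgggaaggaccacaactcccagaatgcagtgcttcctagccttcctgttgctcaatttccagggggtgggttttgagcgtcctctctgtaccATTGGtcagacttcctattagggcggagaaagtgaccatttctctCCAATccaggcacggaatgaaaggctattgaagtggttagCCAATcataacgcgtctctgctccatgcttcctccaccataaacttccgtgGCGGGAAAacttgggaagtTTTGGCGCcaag
Rfc5: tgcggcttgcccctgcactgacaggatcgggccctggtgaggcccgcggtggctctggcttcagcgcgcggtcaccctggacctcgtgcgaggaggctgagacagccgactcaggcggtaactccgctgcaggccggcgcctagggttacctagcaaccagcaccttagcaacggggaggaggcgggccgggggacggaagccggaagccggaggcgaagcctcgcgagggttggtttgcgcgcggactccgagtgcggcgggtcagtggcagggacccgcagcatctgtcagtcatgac
Asf1b: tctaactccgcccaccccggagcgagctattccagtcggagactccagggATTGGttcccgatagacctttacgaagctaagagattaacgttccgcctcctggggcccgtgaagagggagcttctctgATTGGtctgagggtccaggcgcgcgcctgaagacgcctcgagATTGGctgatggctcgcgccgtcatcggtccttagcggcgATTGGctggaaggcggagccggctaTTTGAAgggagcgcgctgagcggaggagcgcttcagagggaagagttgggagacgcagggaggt
Mki67: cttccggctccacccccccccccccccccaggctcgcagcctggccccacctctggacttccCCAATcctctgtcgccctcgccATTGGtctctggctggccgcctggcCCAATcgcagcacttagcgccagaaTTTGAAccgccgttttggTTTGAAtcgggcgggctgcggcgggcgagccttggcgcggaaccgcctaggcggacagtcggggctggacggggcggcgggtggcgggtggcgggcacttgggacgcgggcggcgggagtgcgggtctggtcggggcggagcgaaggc
Nusap1: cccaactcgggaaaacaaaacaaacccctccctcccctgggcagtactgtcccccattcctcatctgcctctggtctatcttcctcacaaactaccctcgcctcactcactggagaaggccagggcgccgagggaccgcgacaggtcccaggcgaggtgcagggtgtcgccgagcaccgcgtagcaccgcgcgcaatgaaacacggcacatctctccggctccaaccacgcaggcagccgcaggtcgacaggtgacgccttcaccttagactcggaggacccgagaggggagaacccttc
H2-DMa: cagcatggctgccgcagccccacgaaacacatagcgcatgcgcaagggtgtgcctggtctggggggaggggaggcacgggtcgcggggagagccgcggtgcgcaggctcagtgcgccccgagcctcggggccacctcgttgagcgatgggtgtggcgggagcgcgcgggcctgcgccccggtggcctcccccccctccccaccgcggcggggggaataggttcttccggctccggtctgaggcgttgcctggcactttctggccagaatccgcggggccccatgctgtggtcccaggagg
H2-DMb1: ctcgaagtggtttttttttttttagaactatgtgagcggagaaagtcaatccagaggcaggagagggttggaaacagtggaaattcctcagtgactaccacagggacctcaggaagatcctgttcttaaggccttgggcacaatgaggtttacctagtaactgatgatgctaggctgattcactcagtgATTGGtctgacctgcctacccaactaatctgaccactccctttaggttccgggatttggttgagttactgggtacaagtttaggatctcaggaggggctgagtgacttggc

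Mki67 carried 2 cell-cycle elements and 3 CCAAT boxes, Asf1b 1 and 4, and Mcm3 3 CCAAT boxes with 2 E2F cores. Fen1 held 1 cell-cycle element in the window shown, while Rfc5 and Nusap1 held none of the 3 motifs there. Over the first window of all 27025 genes in the RefSeq promoter table, 19.4% held the cell-cycle element, 37.9% CCAAT and 1.63% an E2F core. Over the 14172 of these that are in the count table of the CD11b libraries, the shares were 14.97%, 38.5% and 2.55%. Among mitosis genes with a window, 23 of 30 held the cell-cycle element (76.7%) and none an E2F core. Among replication genes, 11 of 32 held an E2F core (34.4%) and 8 of 32 the cell-cycle element (25%). Among repair genes, 5 of 22 held an E2F core (22.7%) and 13 of 22 a CCAAT box (59.1%). These shares cover all list members with a window, called or not. Among genes of the division lists that fell and had a window, 14 of 32 held the cell-cycle element (43.75%), 20 a CCAAT box (62.5%) and 3 an E2F core (9.4%). Among the 80 leukocyte-side genes that fell and had a window, 20% held the cell-cycle element and 2.5% an E2F core. H2-DMa held none of the 3 motifs, and H2-DMb1 held 1 CCAAT box. A match describes letters in a window, and binding was not measured.

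To say which of the other changes concern genes of leukocytes, each gene was placed by its level in the 10x library. Barcodes with at least 1000 UMIs (unique molecular identifiers) were leukocyte-rich if 10 leukocyte genes took at least 0.3% of their UMIs (598 barcodes) and leukocyte-poor at 0.1% or less (3212 barcodes). No doublet caller was run, so droplets with a tumour cell and a leukocyte can be among the leukocyte-rich barcodes, and free RNA was not subtracted. A gene was on the leukocyte side if its CPM, plus 1, was at least 4-fold higher in the rich than in the poor barcodes, and on the other side if it was 4-fold lower. There is 1 such library and its tumour is Ras-driven, so the sides are a description with no test. Of 1106 tested leukocyte-side genes, 100 fell (9.04%) and 10 rose (0.904%). Of 1668 tested genes on the other side, 432 rose (25.9%) and 1 fell, Rtn1, named after its value was seen (25.4 CPM to 8.01 and 7.06 CPM). These 432 genes are 62.8% of all genes called higher. The median log2 fold change was -0.29 on the leukocyte side and 1.84 on the other side. On the leukocyte scaling, the medians were 0.17 and 2.29, beside 0.45 over all genes.

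**Figure D3:**
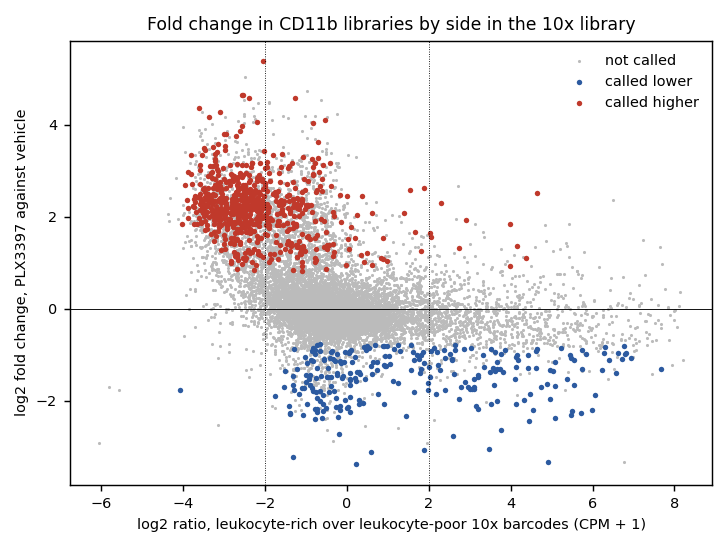
Each point is a tested gene with at least 20 UMIs in the 10x library and at least 1 count under vehicle. The x axis is its log2 ratio between leukocyte-rich and leukocyte-poor barcodes, the y axis its log2 fold change for PLX3397 against vehicle, and dotted lines mark the 4-fold limits. To the right of them 100 genes are called lower and 10 higher, and to the left 1 is called lower and 432 higher.

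Among leukocyte-side genes, the largest fall was that of Mgl2, a galactose-binding lectin of alternatively activated macrophages and dendritic cells (chromosome 11). It stood at 348.9 CPM under vehicle and at 19.4 and 50.3 CPM under PLX3397 (-3.32, SE 0.54, adjusted p = 0.0463), and its call was lost without the filter on low counts (adjusted p = 0.0735). Bank1, a scaffold protein best known in B cells, went from 24.4 CPM to 2.18 and 3.73 CPM. Ch25h, which makes 25-hydroxycholesterol, went from 84.3 CPM to 10.9 and 16.3 CPM (-2.63, SE 0.26). Tnfsf13b, the B-cell survival factor BAFF, went from 69.4 CPM to 13.2 and 12.5 CPM (-2.44, SE 0.16). Adamdec1, a metalloprotease of macrophages, went from 569.2 CPM to 112.3 and 131.1 CPM (-2.23, SE 0.18). The 2 PLX3397 values of Tnfsf13b and Adamdec1 lay close together, and those of Mgl2 lay apart.

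Several cell-surface receptors were among the 20 largest leukocyte-side falls. Klra2, of the Ly49 family of receptors for MHC class I, went from 188.5 CPM to 35.8 and 43.1 CPM (-2.26, SE 0.17), and Klrb1b, of the NKR-P1 family, from 95.7 CPM to 16.6 and 24.9 CPM. In the natural killer list, 0 of 9 genes were called by edgeR, DESeq2 or limma-voom (1 at an unadjusted p under 0.05 by edgeR), and their summed level was 32.5 CPM under vehicle and 22.6 and 27.8 CPM under PLX3397. Clec4a2, an inhibitory C-type lectin of myeloid and dendritic cells, went from 126.3 CPM to 26.95 and 28.0 CPM (-2.20, SE 0.14), and its neighbour Clec4a1 from 75.4 CPM to 30.9 and 29.8 CPM (-1.31, SE 0.14). Clec5a, an activating lectin that signals through DAP12, went from 301.6 CPM to 97.8 and 132.9 CPM, a call that was lost on the leukocyte scaling (adjusted p = 0.0811). Slamf9, of the SLAM family, went from 150.9 CPM to 45.0 and 37.8 CPM, and the adhesion receptor Adgrg5 from 128.6 CPM to 29.5 and 34.7 CPM. In the whole list of lectins and scavenger receptors, 4 of 25 fell and none rose, with a median of -0.39, or 0.03 on the leukocyte scaling. Mrc1, the mannose receptor, was at 674, 386.2 and 436.8 CPM (adjusted p = 0.0891), and Msr1, a scavenger receptor, at 872.5, 384.1 and 466.1 CPM (adjusted p = 0.0562). Genes of the Clec4a, Klra and H2-DMb families have close copies, and reads may be shared among them.

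Within antigen presentation by MHC class II, the 3 genes that fell encode the exchange factor H2-M, which removes the CLIP fragment and loads peptide. H2-DMb1 (chromosome 17, promoter window above) went from 334.7 CPM to 100.8 and 112.1 CPM (-1.65, SE 0.16). H2-DMb2 went from 102.9 CPM to 29.4 and 34.0 CPM (-1.70, SE 0.16), and H2-DMa from 287.2 CPM to 111.3 and 128.5 CPM (-1.26, SE 0.16). On the leukocyte scaling the call of H2-DMa was lost (adjusted p = 0.0688). The class II chains themselves were lower in both PLX3397 libraries without passing the test: H2-Aa was at 1276, 433.1 and 659.8 CPM (-1.22, SE 0.30, adjusted p = 0.0835) and H2-Eb1 at 1184, 341.7 and 545.5 CPM (-1.42, SE 0.32, adjusted p = 0.0713). Ciita, the transactivator of class II genes, was at 104.2, 15.8 and 35.0 CPM (-2.03, SE 0.45, adjusted p = 0.0701). For these 3 genes PLX3397 mouse 1 was well below mouse 2, and the spread between the 2 was smaller for the H2-DM genes. Of the 19 genes in the list, 13 were below vehicle in both PLX3397 libraries and none above, with a median of -0.61 (-0.18 on the leukocyte scaling). MHC class I and its peptide supply gave other values: 0 of 19 genes were called by edgeR, DESeq2 or limma-voom (6 at an unadjusted p under 0.05 by edgeR), with a median of -0.07, or 0.37 on the leukocyte scaling.

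Chemokines moved both ways. The monocyte-attracting genes Ccl2 (158.1 CPM to 80.4 and 78.0 CPM), Ccl7 (100.6 CPM to 42.8 and 37.6 CPM) and Ccl12 (138.6 CPM to 61.5 and 50 CPM) fell by 1.00, 1.32 and 1.31 on the log2 scale, though the call of Ccl2 was lost on the leukocyte scaling (adjusted p = 0.146). Ccl22, a ligand of CCR4 made by macrophages and dendritic cells, rose from 34.2 CPM to 107.2 and 136.3 CPM (1.83, SE 0.22). Cx3cl1, a membrane-bound chemokine of neurons and endothelium on the leukocyte-poor side, rose from 16.8 CPM to 67.2 and 78.5 CPM. Ccl24, an eosinophil attractant, was at 287.8, 8.16 and 48.8 CPM and did not pass the test (adjusted p = 0.105). It is named after its value was seen, for the gap between the PLX3397 libraries. Of 15 chemokine receptors, 0 were called by edgeR (9 at an unadjusted p under 0.05), 0 by limma-voom and 7 by DESeq2, with Ccr1 at 497.9, 238.2 and 288.9 CPM and Cxcr4 at 238.9, 515.8 and 387.1 CPM. Of 33 tested interferon-stimulated genes, 1 fell, Cxcl9 (46.7 CPM to 11.5 and 14.6 CPM), and 24 were below vehicle in both PLX3397 libraries, with a median of -0.26, or 0.17 on the leukocyte scaling. Cxcl10 was at 229, 124.5 and 161.8 CPM (adjusted p = 0.117).

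The leukocyte-side genes that rose were few. Atp6v0d2, a subunit of the vacuolar proton pump prominent in osteoclasts and macrophages (chromosome 4), went from 25.7 CPM to 159 and 136.9 CPM (2.52, SE 0.19). Ocstamp, a membrane protein that osteoclast precursors need to fuse, went the other way, from 134.1 CPM to 16.6 and 23.2 CPM (-2.75, SE 0.23). These were the only called members of the 12-gene osteoclast and fusion list by edgeR. Arg2, the mitochondrial arginase, rose from 8.25 CPM to 26.7 and 36.6 CPM (1.94, SE 0.28), while Arg1, the cytosolic form, was at 719.9, 368.3 and 727.1 CPM with overlapping groups. C3, the central complement protein, rose from 174.2 CPM to 407 and 483.4 CPM (1.35, SE 0.21), and F7, coagulation factor VII, from 20.2 CPM to 66.3 and 52.8 CPM. Il7r, the interleukin-7 receptor chain, rose from 38.6 CPM to 82.5 and 83 CPM, and Slc40a1, the iron exporter ferroportin, from 110.9 CPM to 211.7 and 212.8 CPM (0.94, SE 0.16). Fam169b went from 4.94 CPM to 15.7 and 15.3 CPM. Nrgn, a neuronal protein named after its value was seen, went from 1.00 CPM to 5.28 and 4.58 CPM.

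**Figure D4:**
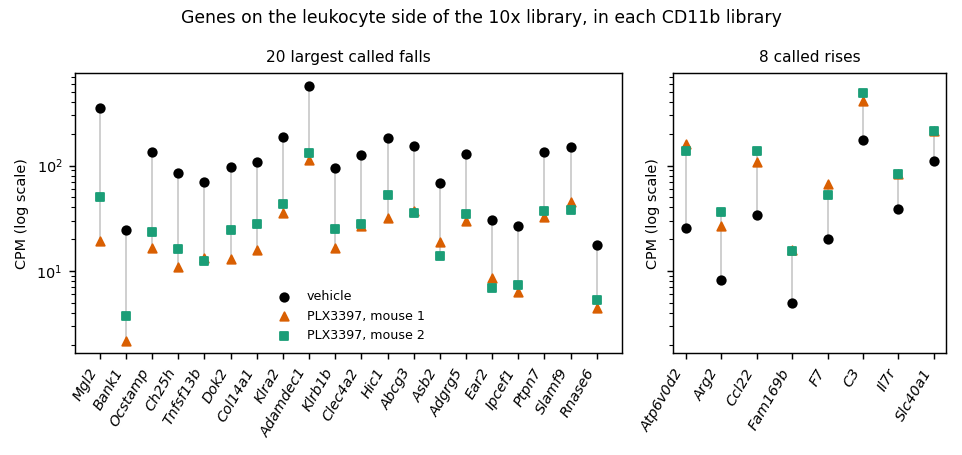
CPM on a log axis in each of the 3 CD11b libraries for leukocyte-side genes, the 20 largest called falls on the left and 8 called rises with a mean log2 CPM of at least 3 on the right. The vehicle point lies above both PLX3397 points on the left and below both on the right, by up to 348.9 against 19.4 CPM (Mgl2).

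Markers that separate resident microglia from blood-derived cells gave no common direction. Of 22 genes of homeostatic microglia, 1 fell (Siglech, 34.6 CPM to 18.1 and 17.0 CPM, lost on the leukocyte scaling), with a median of -0.34, or 0.10 on that scaling. Cx3cr1, the fractalkine receptor, was at 731.9, 444.3 and 341.8 CPM (adjusted p = 0.0834), and P2ry12, the ADP receptor of microglial processes, at 144, 98.7 and 61.9 CPM (adjusted p = 0.152). Of 23 monocyte and macrophage genes, 1 rose (Mgst1, 17.6 CPM to 54.7 and 47.2 CPM) and 2 fell (Itgal, 428.7 CPM to 199.7 and 208 CPM, and Ms4a4c, 249.1 CPM to 144.4 and 136.5 CPM, both lost on the leukocyte scaling). Ccr2, the receptor of inflammatory monocytes, was at 192.8, 46.0 and 108.8 CPM (-1.32, SE 0.50, adjusted p = 0.169). Their median was -0.32, or 0.14 on the leukocyte scaling. Of 13 neutrophil genes, 0 were called by edgeR (4 at an unadjusted p under 0.05), 0 by limma-voom and 4 by DESeq2, and 12 were above vehicle in both PLX3397 libraries, with a median of 1.24. S100a9, an abundant neutrophil protein, was at 59.3, 92.6 and 206.6 CPM, with mouse 2 far above mouse 1. Lists of T cells (9 tested genes) and mast cells (4 tested genes) had 0 genes called by edgeR, DESeq2 or limma-voom and 1 each at an unadjusted p under 0.05 by edgeR, with summed levels of at most 114.5 CPM.

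Lipid-associated, lysosomal and cholesterol efflux genes had medians above that of all genes. In the lipid-associated list, 2 of 21 genes rose and 1 fell, with a median of 0.58 against 0.01 over all genes. DESeq2 called 10 of the 21 and limma-voom 0. On the leukocyte scaling 11 were called, 1 of them lower, with a median of 1.02 against 0.45 over all genes. Fabp5, a fatty-acid binding protein, rose from 59.5 CPM to 266.1 and 170.5 CPM (1.88, SE 0.33), and Ank, a pyrophosphate transporter, from 65.2 CPM to 155.2 and 196.8 CPM (1.43, SE 0.21). Fabp5 and Ank lay on neither side of the 10x library, whereas 16 of the 21 genes lay on the leukocyte side. Gpnmb, a lysosomal glycoprotein of lipid-laden macrophages, was at 418.4, 2018 and 987.7 CPM (1.84, SE 0.51, adjusted p = 0.101), and Igf1 at 90.7, 269.5 and 193.8 CPM (adjusted p = 0.0559). Neither passed the test, although both PLX3397 libraries were above vehicle. Of 24 lysosomal genes, 0 were called by edgeR (1 at an unadjusted p under 0.05), 0 by limma-voom and 3 by DESeq2, and 14 were above vehicle in both PLX3397 libraries, with a median of 0.27. On the leukocyte scaling 6 were called, none of them lower, with a median of 0.71. Ctsb, a cathepsin, was at 3759, 7732 and 5134 CPM. Apoe, which encodes the main apolipoprotein of the brain, was at 6795, 14955 and 8903 CPM. Of 9 genes of cholesterol efflux, 0 were called by edgeR (2 at an unadjusted p under 0.05), 0 by limma-voom and 2 by DESeq2, with a median of 0.51. On the leukocyte scaling 4 were called, none of them lower, with a median of 0.95. Of 23 genes of cholesterol synthesis 1 fell (Pmvk, a call lost on the leukocyte scaling). Their median was 0.01, near that of all genes, and 0.47 on the leukocyte scaling against 0.45 over all genes.

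In lists of other macrophage functions few genes were called. Of 13 complement genes, C3 and Serping1, the C1 inhibitor, rose (Serping1 from 3.57 CPM to 16.0 and 21.3 CPM). Of 12 genes of efferocytosis, the uptake of dead cells, Tyro3 rose from 2.47 CPM to 11.7 and 12.6 CPM and Elmo1 fell from 128.7 CPM to 72.8 and 73.9 CPM, the latter call lost on the leukocyte scaling. The partner receptor Mertk was at 346, 493.9 and 376.7 CPM (adjusted p = 0.4). Of 22 inflammatory mediators, Tgfb2 rose from 4.84 CPM to 15.5 and 22.1 CPM and Tnfsf13b fell. Tyro3 and Tgfb2 lay on the leukocyte-poor side, Serping1 and Elmo1 on neither side, and C3 and Tnfsf13b on the leukocyte side. Whether the rises of Tyro3, Tgfb2 and Serping1 arose in macrophages was not tested. Of 17 genes of glycolysis and hypoxia, 21 immediate early genes and 6 Fc receptors, 0 were called by edgeR or limma-voom (1 in each list at an unadjusted p under 0.05 by edgeR), and DESeq2 called 2, 1 and 0. Egr1, an immediate early gene that dissociation can induce, was at 870.2, 1170 and 1362 CPM. Of 12 dendritic genes 1 fell (Kmo, a call lost on the leukocyte scaling, adjusted p = 0.0692), as did 1 of 5 B-cell genes (Bank1) and 1 of 7 plasmacytoid genes (Siglech).

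Markers of neural, vascular and fibroblast cells, which should not carry CD11b, were mostly higher in the PLX3397 libraries. Of 13 astrocyte genes, 10 rose and all 13 were above vehicle in both PLX3397 libraries, and their summed level went from 147.3 CPM to 907.4 and 816.5 CPM. Aqp4, the astrocytic water channel, went from 5.81 CPM to 61.4 and 49.3 CPM (3.25, SE 0.24). Of 14 genes of glial precursors or tumour cells, 5 rose, with sums of 44.1, 202.4 and 216.3 CPM. Olig1 went from 1.20 CPM to 12.9 and 11.7 CPM and Ptprz1 from 1.57 CPM to 17.5 and 14.5 CPM. Oligodendrocyte genes (5 of 12 rose), neuronal genes (7 of 14 rose) and fibroblast genes (4 of 10 rose) had medians of 2.29, 1.94 and 2.46. Rbfox3, the defining neuronal marker, had 0 counts under vehicle and 24 and 23 under PLX3397, at least 8.18-fold higher against a floor of 3 counts in the library. No gene of these 5 lists fell. Of 13 endothelial genes 1 rose (Ly6c1), and of 10 pericyte genes 1 rose (Pdgfrb). Even so, 12 of the endothelial and 9 of the pericyte genes were above vehicle in both PLX3397 libraries, with medians of 1.45 and 1.54. DESeq2 called 8 and 2 of them, and limma-voom 0. Of 3 ependymal and 4 red-cell genes tested, 0 were called by edgeR or limma-voom (2 and 1 at an unadjusted p under 0.05 by edgeR), and DESeq2 called 1 and 0. The red-cell genes went the other way, with a median of -1.72. Of them, 3 were below vehicle in both PLX3397 libraries and 0 above. The 3 largest rises of named genes, A2m (4.24 CPM to 68.6 and 55.2 CPM), Nfasc (2.00 CPM to 33.7 and 22.1 CPM) and Igfbp2 (7.85 CPM to 102.4 and 79.8 CPM), lay on the leukocyte-poor side of the 10x library. Lcn2, an iron-binding protein of reactive astrocytes and neutrophils, went from 7.14 CPM to 68.7 and 50.9 CPM.

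Of the platelet-derived growth factors and their receptors, Pdgfra (9.18 CPM to 51.9 and 50.2 CPM), Pdgfrb (12.2 CPM to 41.5 and 62.1 CPM) and Pdgfa (20.5 CPM to 39.8 and 39.7 CPM) rose. Pdgfb, the driver of the tumours, was at 87.1, 130.7 and 114 CPM (0.49, SE 0.17, adjusted p = 0.14), and counts do not tell the transgene from the gene of the host. The part of these cells in the falls of leukocyte and division genes was not tested.

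The 2 PLX3397 libraries differed from each other in ways that their common change hides. Median log2 ratios of mouse 1 over mouse 2 (CPM plus 1) were -0.02 over all genes, 0.38 for the lysosome list and 0.45 for cholesterol efflux, where all 24 and all 9 genes were higher in mouse 1. They were -1.09 for neutrophil, -0.78 for endothelial, -0.78 for pericyte and -0.73 for fibroblast genes, with no endothelial, pericyte or fibroblast gene higher in mouse 1. Monocyte and macrophage genes had a ratio of -0.50, with 5 of 23 higher in mouse 1, and homeostatic microglia genes 0.38, with 21 of 22 higher in mouse 1. Ctsk, a collagen-cutting cathepsin, was at 67.6 CPM under vehicle and at 6.09 and 41.0 CPM under PLX3397, and Mmp9, a gelatinase, at 194, 26.9 and 122.9 CPM. Both are named after their values were seen, and neither passed the test. These ratios compare 1 mouse with 1 mouse and have no replicate check.

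**Figure D5:**
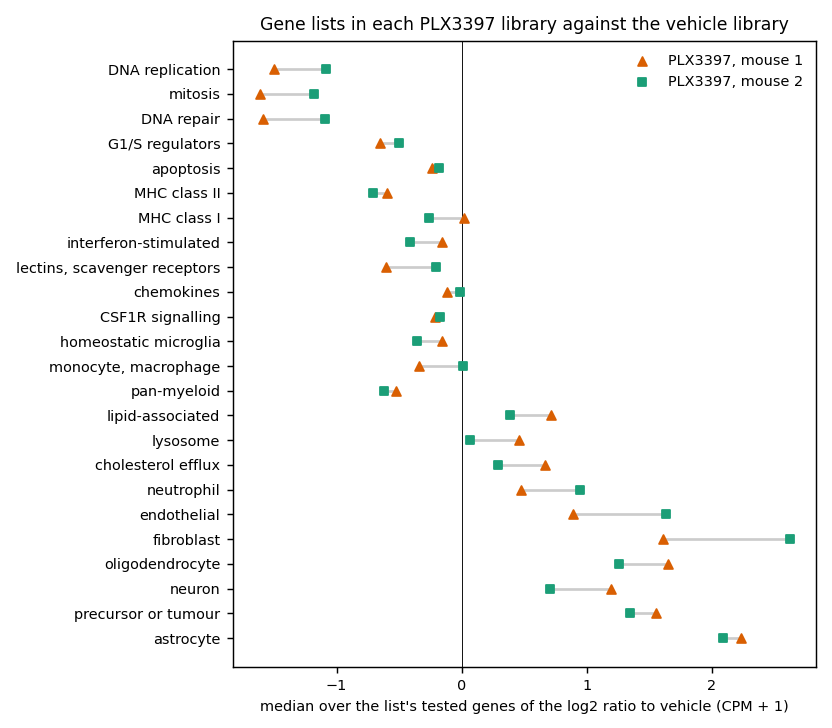
Median log2 ratio to the vehicle library (x axis, CPM plus 1) over the tested genes of each of 24 lists (y axis), for PLX3397 mouse 1 (triangles) and mouse 2 (squares). Division lists are below 0 in both mice and lower in mouse 1, while fibroblast, endothelial and neutrophil lists are higher in mouse 2.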

How the data were processed

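Gene counts were deposited by the authors as raw whole numbers per gene symbol, with no normalization. The submitters' processing notes name STAR, featureCounts 1.6.2, Trim Galore 0.4.2 with cutadapt 1.9.1, FastQC 0.11.7 and the build GRCm38, and strand use is not given in the sources used here. From 18268 rows, 1 without a name was left out (under 0.00011% of a library). The 10x counts are deposited UMI counts of 4384 barcodes.

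In R 4.3.3, the quasi-likelihood test of edgeR 4.0.16 was fitted to the 3 libraries (TMM scaling, default filter on low counts, robust estimation), with Benjamini-Hochberg adjustment over all 15052 genes tested and a threshold of 0.05. DESeq2 1.42.0, limma-voom (limma 3.58.1), relative log expression scaling, scaling on 20 leukocyte genes, other filters, robust estimation off and leaving out each PLX3397 library were tried. In simulated counts of this design over 15052 genes, 33 of 67 genes changed 2-fold, 55 of 67 changed 4-fold and 62 of 66 changed 8-fold were called. With them, 29 unchanged genes were called. The share of unchanged genes among those called was thus above 0.05, so the threshold did not hold its nominal error rate in this simulation.

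Members and lists were chosen with earlier results of these data known. Named genes were the 25 largest called rises and falls (mean log2 CPM of at least 3, without predicted, mitochondrial and ribosomal protein genes), the 20 largest each way on the leukocyte side, up to 6 genes per list with the smallest adjusted p, all receptors, ligands and drivers, and 7 fixed genes. Not all of these are printed, and some are not reported here. Promoters and positions are from RefSeq for GRCm38.p6.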

Additional observations from a re-analysis of the deposited data

How the results depend on the processing

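The number of called genes (956, with 688 higher and 268 lower) was 1968 (1407 and 561) by DESeq2, 0 (0 and 0) by limma-voom, 2246 (2129 and 117) on the leukocyte scaling and 1907 (1298 and 609) without a filter on low counts. Of the 956 genes, 953 were also called by DESeq2, 802 on the leukocyte scaling and 954 without the filter. The smallest adjusted p of limma-voom was 0.056. The other 3 alternatives stayed within 1.5 times each of these counts, as did the number of genes on each 10x side under stricter barcode classes. No fit without a PLX3397 library can be tested, since 1 library a group leaves no residual degree of freedom. No paired analysis was possible because the groups share only replicate number 1.

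Of 140 named genes that were called, 18 lost the call on the leukocyte scaling, 140 by limma-voom, 2 without the filter and 1 with at least 5 CPM in 1 library, and none changed direction in the alternatives run. Of 47 list medians, 15 changed sign on the leukocyte scaling, which moved the median of all genes by 0.44. They came to 0.25 (CSF1R signalling), 0.10 (homeostatic microglia), 0.14 (monocyte and macrophage), 0.17 (interferon-stimulated), 0.41 (chemokines), 0.030 (lectins and scavenger receptors), 0.41 (arginine metabolism and alternative activation), 0.41 (complement), 0.18 (B cell), 0.015 (plasmacytoid dendritic), 0.21 (apoptosis), 0.37 (MHC class I), 0.36 (chemokine receptors), 0.33 (Fc receptors) and 0.40 (T cell). With at least 5 CPM in 1 library, 8 changed sign: chemokines 0.052, dendritic -0.52, MHC class I 0.0280, chemokine receptors 0.18, arginine metabolism and alternative activation 0.052, complement 0.0788, T cell 0.33 and natural killer -0.75. With no filter 3 did: B cell 0.35, arginine metabolism and alternative activation 0.0225, and inflammatory mediators -0.00833. By limma-voom 3 did: cholesterol synthesis -0.0306, inflammatory mediators -0.0737 and natural killer -0.00968. Without PLX3397 replicate 1, 2 changed sign, and without replicate 2, 8 did. The first were monocyte and macrophage and arginine metabolism and alternative activation (0.14), and the second included MHC class I (0.0172), glycolysis and hypoxia (-0.0716), complement (0.22) and natural killer (-0.33). Without replicate 1 or 2, medians ranged from -0.34 to 0.012 (monocyte and macrophage), -0.37 to 0.14 (cholesterol synthesis), -0.50 to 0.17 (inflammatory mediators), -0.64 to 0.080 (B cell) and -0.042 to 0.14 (dendritic). The cause was not tested.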
